A study of Mus musculus with 4 samples.

Results

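The report covers 9 genes of Wnt signalling, Wif1, Notum, Apcdd1, Rnf43, Znrf3, Axin2, Nkd1, Lef1 and Tcf7, out of 28889 genes listed in the 3 libraries with a count matrix. The genes were chosen by their counts in these same libraries, which were high in tumour cells of the KLF2 mice, and were then taken by name. Their levels in KLF2 against vector are therefore a description and carry no test of their own. All 9 genes were listed in each of the 3 libraries. The tumours came from livers of male C57BL/6 mice and were sequenced cell by cell at an age of 18 weeks, 10 weeks after a hydrodynamic injection of plasmids into the tail vein, which carries DNA into hepatocytes. Mice of the KLF2 group received pT3-EF1α-KLF2 beside pT3-EF1α-c-MYC and beside pT3-EF1α-AKT, and mice of the vector group received the pT3 empty vector beside the same MYC and AKT plasmids. Both groups received SB100X, the transposase that inserts the pT3 cassettes into the genome, so both tumours were driven by MYC and AKT, and the EF1α promoter acts in whichever liver cell took up the DNA. KLF2 is a transcription factor best known from endothelium and resting lymphocytes. Each library came from a mouse of its own. The comparison sets KLF2 replicates 1 and 2 against vector replicate 2. No matrix of vector replicate 1 was analysed here.

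Wnt proteins bind Frizzled receptors and LRP co-receptors, which spares β-catenin from destruction and lets it act with LEF/TCF factors on target genes. Many of those targets are brakes on the pathway itself, so their transcripts are widely read as a record of pathway activity. Wif1 binds Wnt proteins outside the cell, and Notum is a secreted enzyme that strips the lipid from Wnt. Apcdd1 is a membrane protein that interferes with Wnt at the receptor, and Rnf43 and Znrf3 are membrane ubiquitin ligases that remove Frizzled from the cell surface. Axin2 is a scaffold of the complex that destroys β-catenin, and Nkd1 binds Dishevelled, which relays the signal from the receptor. Lef1 and Tcf7 are not inhibitors. They are DNA-binding partners of β-catenin, and both also work in T cells, where Tcf7 marks naive and memory-like cells. In healthy liver, Wnt signals from the central vein keep the hepatocytes around it in a programme with Axin2, Cyp2e1 and Oat.

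The 9 genes lie on 5 chromosomes, and those whose promoters are in the RefSeq table (GRCm38.p6) are not built alike there. Promoter windows of 300 bases, running from 250 bases before to 50 bases after an annotated start, were found for 6 of the 9 genes, 11 windows in all. LEF/TCF factors are known to bind CTTTGAT and close relatives. None of the 11 windows held CTTTGAT, the variant CTTTGAA or the further variant CTTTGTT on either strand, against 13.9% of all 32851 windows of that length. The shorter core CTTTG, which each of the 3 longer motifs contains, was in 5 of the 11 windows, all of them of Lef1 or Wif1, and in 53.9% of all windows. The windows of Wif1, which had no UMI in the hepatocyte-lineage-like cells of the vector tumour, and of Axin2, the usual reporter of the pathway, are printed here with any CTTTG core in capitals.
Wif1, chr10:121033754-121034053, plus strand: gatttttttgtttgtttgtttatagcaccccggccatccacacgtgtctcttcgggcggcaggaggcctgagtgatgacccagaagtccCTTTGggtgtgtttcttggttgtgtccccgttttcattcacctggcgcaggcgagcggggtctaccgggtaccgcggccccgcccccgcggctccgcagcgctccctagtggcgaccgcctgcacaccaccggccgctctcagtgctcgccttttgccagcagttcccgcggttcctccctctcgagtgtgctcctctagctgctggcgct
Axin2, chr11:108920099-108920398, plus strand: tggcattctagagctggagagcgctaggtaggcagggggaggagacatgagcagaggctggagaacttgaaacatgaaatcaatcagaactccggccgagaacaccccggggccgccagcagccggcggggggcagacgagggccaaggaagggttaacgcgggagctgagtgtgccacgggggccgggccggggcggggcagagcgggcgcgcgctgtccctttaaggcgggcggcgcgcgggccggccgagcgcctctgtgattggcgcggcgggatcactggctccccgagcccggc
The core of Wif1 begins 161 bases before the annotated start, and the Axin2 window holds none. The match says only which letters stand in these windows.

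The KLF2 libraries were deeper than the vector library and had fewer mitochondrial transcripts. They held 6209 and 11103 kept cells with medians of 8912 and 5854 counted molecules (UMIs), against 8403 cells with a median of 3191 in vector replicate 2. Mitochondrial genes took a median of 0.227% and 0.35% of a KLF2 barcode's UMIs and 16.3% of a vector barcode's. Tumour and parenchymal cells, the non-leukocyte cells named neither stroma nor endothelium and called the compartment here, numbered 5206 and 8337 in the KLF2 libraries and 668 in vector. They were not the same kind of cell. In vector 665 of the 668 were hepatocyte-lineage-like, with 10517 CPM (UMIs of a gene per 1000000 UMIs of the class in that library) summed over 14 hepatocyte markers. In KLF2 only 20 and 57 cells were, and the same markers summed to 98.5 and 66.9 CPM, so they do not bear out a hepatocyte identity for the rest. Klf2 itself stood at 326 and 379 CPM in the KLF2 compartments and at 167 CPM in vector. Whether those counts include the plasmid's transcript was not tested. Between any pair of libraries 550 to 1146 barcode names were shared, but the names are running numbers and not sequences.

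The genes differ in length, most of which is intron in all of them. In the GENCODE annotation of GRCm38, Notum (chromosome 11, 120653788 to 120661175) spans 7.39 kb, Axin2 (chromosome 11, 108920349 to 108950783) 30.4 kb and Tcf7 (chromosome 11, 52252371 to 52283014) 30.6 kb. Wif1 (chromosome 10, 121033960 to 121100650) spans 66.7 kb, Rnf43 (chromosome 11, 87662722 to 87735539) 72.8 kb and Nkd1 (chromosome 8, 88521354 to 88594884) 73.5 kb. Lef1 (chromosome 3, 131110471 to 131224356) spans 113.9 kb and Znrf3 (chromosome 11, 5276324 to 5444847) 168.5 kb. Apcdd1 (chromosome 18, 62922231 to 62961179) spans 38.9 kb.

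All 9 genes were abundant in compartment cells of both KLF2 tumours and rare in those of the vector tumour. Wif1 and Nkd1 stood at 503 to 749.7 CPM, Notum and Apcdd1 at 342 to 429 CPM, and the remaining genes between 82.2 and 222 CPM. In the vector library none passed 20 CPM. Summed over the 9 genes, the level was 2711 ± 195 CPM (SD, n = 2) in KLF2 and 69.7 CPM in the single vector library.

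Among the secreted inhibitors, Wif1 had 749.7 CPM in KLF2 replicate 1 and 503 CPM in KLF2 replicate 2, against 0.299 CPM, a single UMI, in vector replicate 2. Notum had 342 and 386 CPM in the KLF2 libraries and 11.4 CPM in vector. Both genes were far higher in each KLF2 library than in vector, and Wif1 varied more between the KLF2 libraries (626 ± 175 CPM, SD, n = 2) than Notum did (364 ± 30.9 CPM, SD, n = 2). Of the membrane proteins, Apcdd1 had 429 and 346 CPM in KLF2 and 7.78 CPM in vector. Rnf43 had 82.2 and 118 CPM in KLF2 and 6.28 CPM in vector. Znrf3 had 125 and 154 CPM in KLF2 and 3.59 CPM in vector. The lowest KLF2 value of each of these membrane proteins lay more than 10-fold above its vector value. In the cytoplasm, Axin2 had 170.2 and 222 CPM in KLF2 and 7.48 CPM in vector. Nkd1, the Dishevelled-binding brake, had 666 and 597 CPM in KLF2 and 8.98 CPM in vector. Nkd1 differed between the KLF2 libraries by less than Wif1 did, with a mean of 631 ± 49.0 CPM (SD, n = 2). Of the DNA-binding factors, Lef1 had 126 and 126 CPM in KLF2 and 4.79 CPM in vector. Tcf7 had 159 and 123 CPM in KLF2 and 19.2 CPM in vector, the highest vector level of the 9 and the smallest ratio between the groups.

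The vector level of 4 of the genes rested on 3 cells. These cells fell in a cluster led by Tnni1 and Gas5 that otherwise held KLF2 cells, and they carried 89 of the 233 UMIs of the 9 genes in the vector compartment. They held 32 of the 38 Notum UMIs, 25 of the 26 Apcdd1 UMIs, 20 of the 30 Nkd1 UMIs and the only Wif1 UMI found in any vector cell. The 9 genes made up 3786, 6285 and 6478 CPM of these cells. Mitochondrial genes took 17.1%, 7.17% and 11.3% of their UMIs, far above the KLF2 medians and in the range of the vector library. Whether they are cells of the vector tumour or barcodes from another library was not tested.

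Without them, the 665 hepatocyte-lineage-like vector cells gave 0 Wif1 UMIs, 6 of Notum, 1 of Apcdd1 and 10 of Nkd1. Against those cells the KLF2 mean of Wif1 was at least 694-fold higher, taking 3 UMIs as the limit that a count of 0 allows. Nkd1 was 210-fold higher (114 to 438, 95% counting interval), Notum 202-fold (92.6 to 549), Znrf3 42.1-fold (23.5 to 84.4), Lef1 29.9-fold (17.8 to 54.7) and Axin2 29.6-fold (19.6 to 47.3). Rnf43 was 19.6-fold higher (12.2 to 33.7) and Tcf7 7.42-fold higher (5.80 to 9.66). For Apcdd1 the ratio to the single vector UMI was 1288, with an interval of 231 to 50892. The intervals cover counting error only, and the cells compared are of different types. The folds are ratios of CPM without further scaling. Mitochondrial genes and the gene Gm42418 took a larger part of the vector UMIs, and leaving them out makes the folds smaller.

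**Figure D1:**
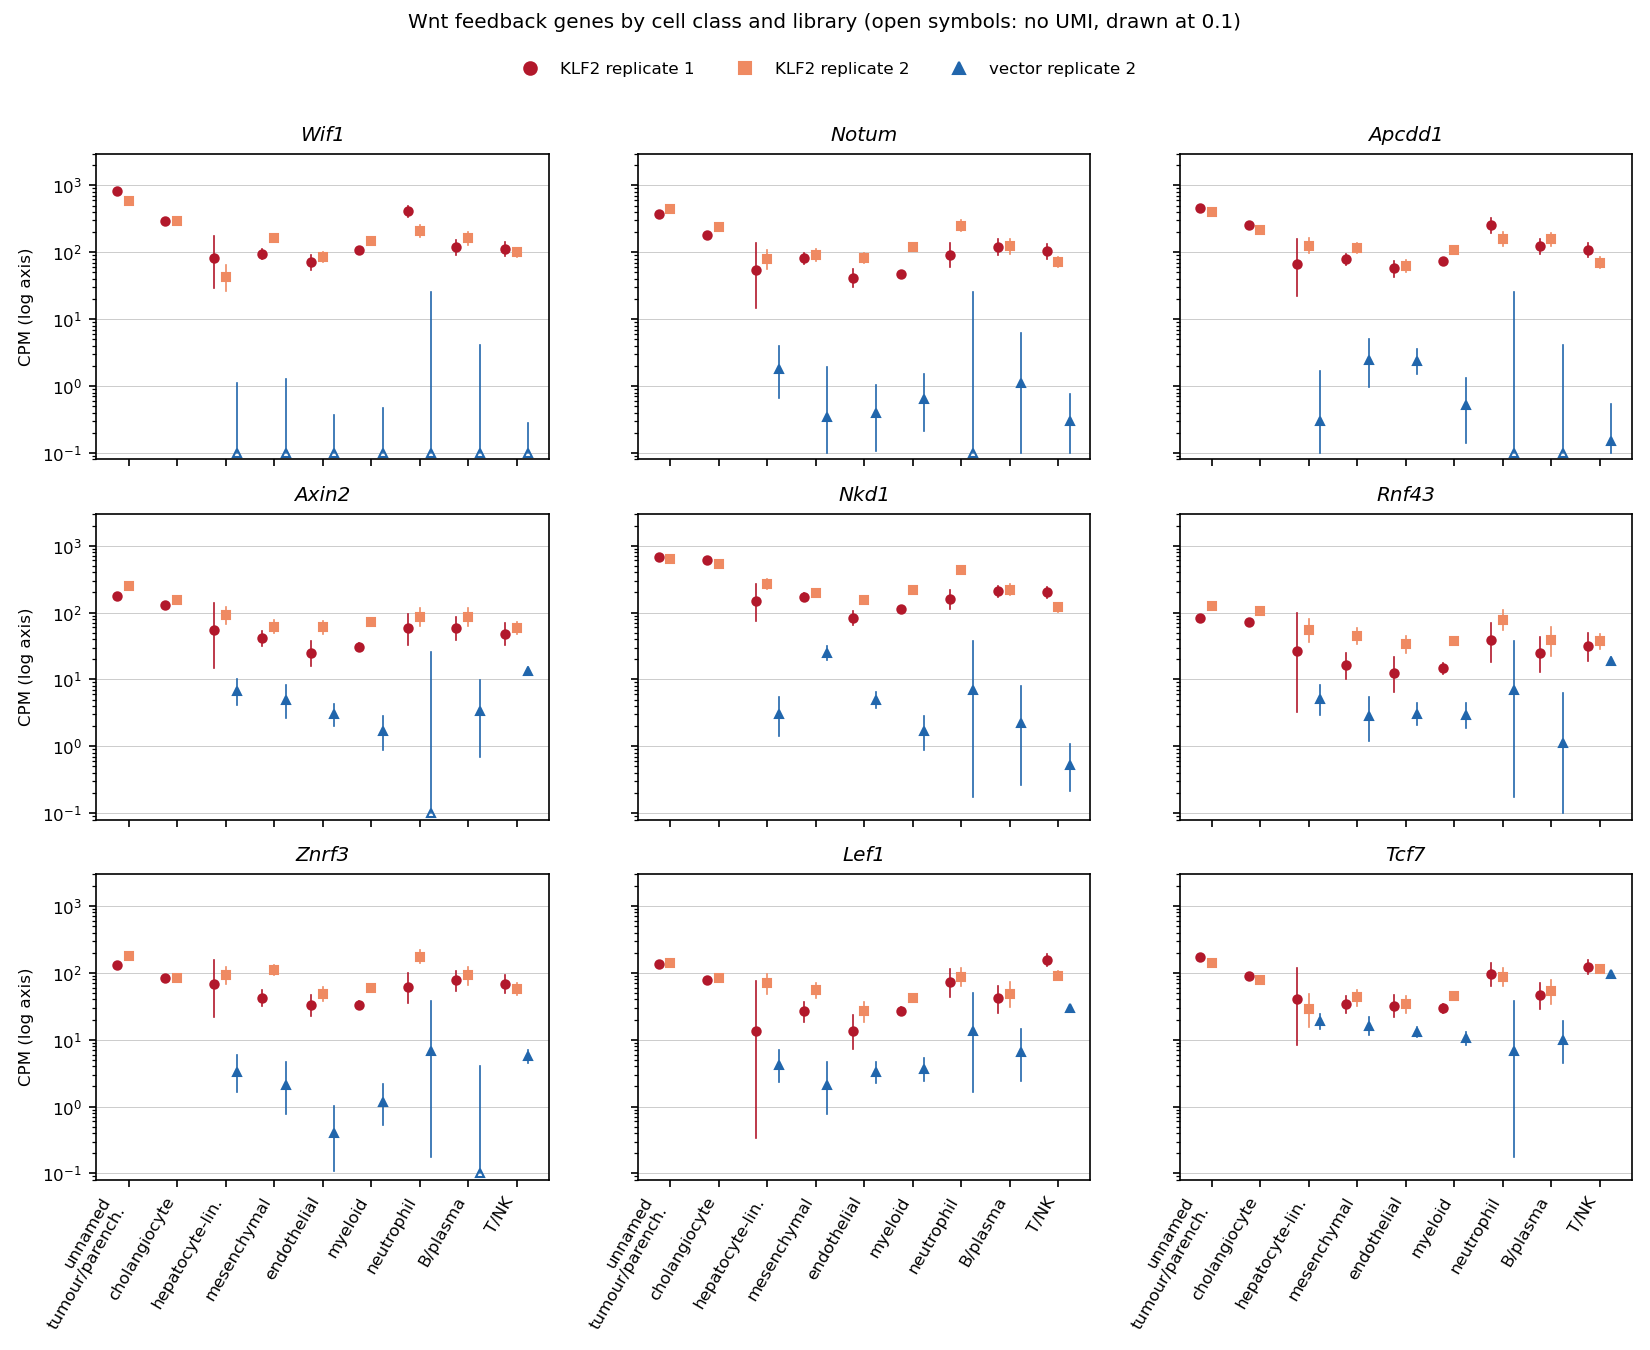
Level of each gene in CPM (log axis) in 9 groups of cells, with KLF2 replicates 1 and 2 drawn left of vector replicate 2. Lines are 95% counting intervals, and the 3 unnamed vector cells are not drawn. Wherever all 3 libraries are drawn the KLF2 symbols lie above the vector symbol, and those of Tcf7 come close together in T/NK-like cells.

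The transcripts were found in most KLF2 compartment cells and not only in a few. Each cell was thinned to 1000 UMIs so that total depths match, which left out 24 of the 668 vector compartment cells. Mitochondrial genes and Gm42418 count among these UMIs and took a larger part of them in vector. Fewer vector UMIs were thus left for other genes, which raises every thinned KLF2 share relative to vector. At least 1 UMI of the 9 genes then remained in 85.7% and 84.8% of KLF2 compartment cells, against 5.28% of vector compartment cells. In myeloid-like cells, taken as a class that should lack most of these transcripts, the shares were 30.3% and 43.1% in KLF2 and 2.44% in vector. The remaining classes of the KLF2 libraries had shares from 41.0% (endothelial-like, replicate 2) to 56.7% (neutrophil-like, replicate 2). A single UMI of these genes was thus common outside the compartment as well. Before thinning, median depths were 9422, 6954 and 3174 UMIs in the compartment and 9347, 5174 and 2953 in myeloid-like cells, in KLF2 replicates 1 and 2 and vector. The KLF2 compartment share lay above that of every other class of the same library. Nkd1 was found in the most cells, 44.9% and 40.1% in KLF2 against 0.932% in vector. Rnf43 and Tcf7 were found in the fewest KLF2 cells, Rnf43 in 10.6% and 13.4% against 0.932% in vector, and Tcf7 in 12.5% and 10.5% against 2.17% in vector. Without thinning, Nkd1 was detected in 87.6% and 80.2% of KLF2 cells and Tcf7 in 59.6% and 48.6%, against 1.80% and 7.19% of vector cells. Thinning to 5000 UMIs left 3685, 4869 and 207 compartment cells in KLF2 replicates 1 and 2 and vector. Of these, 63.1% and 63.7% in KLF2 held 5 or more of the 9 genes at once, against 0.483% in vector. The vector share is 1 cell outside the hepatocyte-lineage-like cells, of which 0 of 206 held as many.

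**Figure D2:**
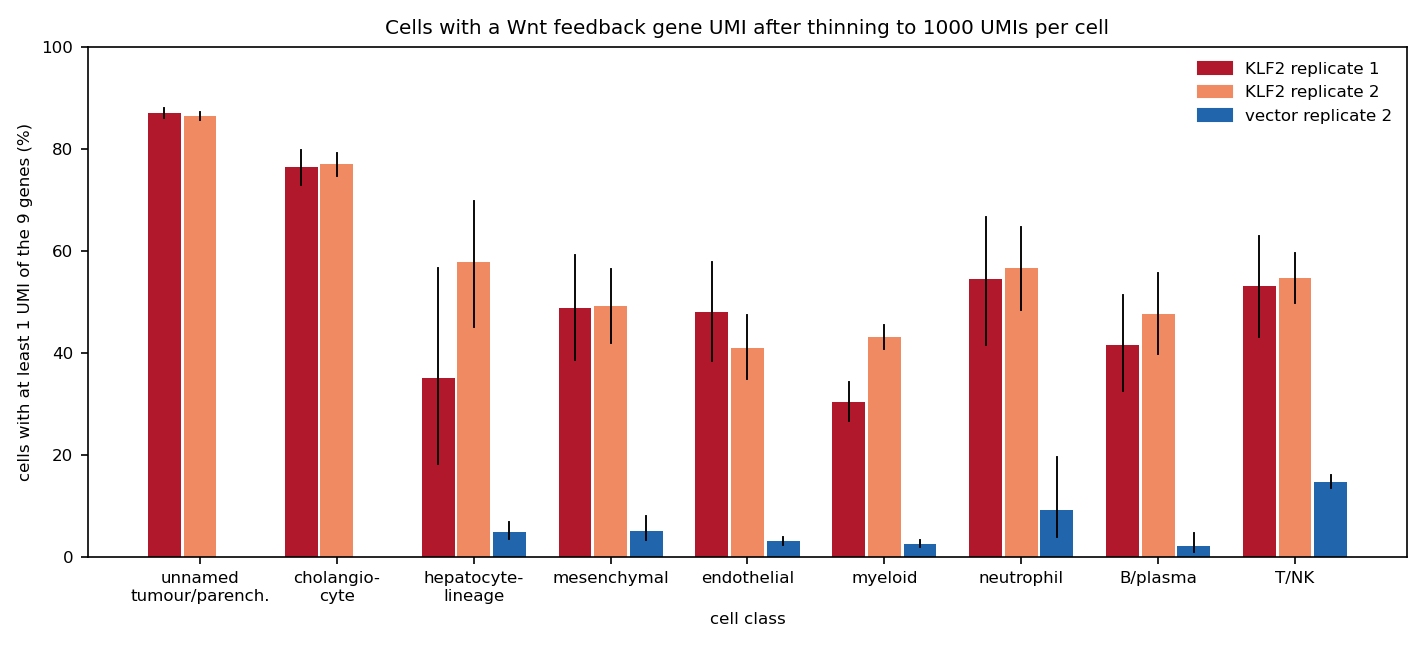
Share of cells with at least 1 UMI of the 9 genes after thinning to 1000 UMIs (vertical axis, percent), by group of cells, with KLF2 bars left of the vector bar and 95% Wilson intervals. The unnamed tumour/parenchymal cells and the cholangiocyte-like cells of the KLF2 libraries stand highest, at 76.5% to 87.1%.

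Within the KLF2 compartment the genes fell into separate patterns over clusters, which had been made without these 9 genes and the other Wnt pathway genes. Wif1 was concentrated in cells led by Ibsp and Serpinf1, genes of bone matrix and of an anti-angiogenic secreted protein, at 1935 and 2072 CPM in KLF2 replicates 1 and 2. It was also high in the cluster led by the alpha-defensin genes Defa21 and Defa22, at 871 and 979.6 CPM. That cluster had little Nkd1, 211 and 260.2 CPM, and little Notum, 149.6 and 179 CPM. Wif1 was lowest among large clusters in the cells led by the nuclear RNA Malat1, at 123 and 213 CPM. In KLF2 replicate 2 the 57 hepatocyte-lineage-like cells had less still, 42.8 CPM. Over clusters with at least 50 cells of a library, Wif1 spanned 15.7-fold in KLF2 replicate 1 and 48.4-fold in KLF2 replicate 2, where the hepatocyte-lineage-like cells were the lowest. In replicate 1, with 20 such cells, they did not enter the span.

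The ubiquitin ligases and Lef1 peaked elsewhere. Lsamp and Cntn4, cell adhesion genes of neurons, led 2 clusters, a smaller one (255 and 405 cells) with Lsamp first and a larger one (719 and 705 cells) with Cntn4 first. In the smaller cluster Znrf3 reached 1149 and 1059.6 CPM, which is 9.19 and 6.89 times its level over the compartment of the same library. Lef1 reached 723 and 474 CPM there, 5.72 and 3.78 times its compartment level. In the larger cluster Znrf3 had 206 and 273 CPM, 1.64 and 1.77 times its compartment level, and Lef1 203 and 189 CPM. Rnf43 was highest in the cells led by Myo5b, at 436 and 439 CPM, where Znrf3 had 819 and 1002 CPM. Notum, Axin2 and Nkd1 were also highest in the smaller cluster, but by less, 1.64 and 1.59 times the compartment level for Notum and 1.63 and 1.69 times for Nkd1. Axin2 stood at 2.16 and 1.75 times and Wif1 at 0.774 and 0.824 times its compartment level. The smaller cluster had 23768 and 20536 CPM of Malat1 and the Myo5b cluster 31396 and 23837 CPM, against 1150 and 1133 CPM in the cells led by Car3 and Mt3. The cluster led by Malat1 itself had as much, 31946 and 23776 CPM. Znrf3 stood there at 192 and 214 CPM, 1.53 and 1.39 times its compartment level. Lef1 stood there at 1.52 and 1.33 times and Rnf43 at 2.31 and 2.08 times. These genes were thus above their compartment level there too, but by less than in the smaller cluster. Znrf3 and Lef1, the genes with the longest spans, were the 2 most raised of the 9 in the smaller cluster of both libraries. The part of nuclear RNA and of unspliced transcripts in this pattern was not tested.

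The patterns recurred in both KLF2 mice. Over the 10 compartment clusters with at least 50 cells in each KLF2 library, the level of a gene in replicate 1 and in replicate 2 had a Pearson r between 0.807 for Apcdd1 and 0.995 for Rnf43. These r values describe clusters that were defined over both libraries together. Within a library, across 11 clusters, the pair that rose and fell most alike was Rnf43 and Znrf3 in replicate 1 (r = 0.961) and Znrf3 and Lef1 in replicate 2 (r = 0.947). Wif1 and Rnf43 were the least alike pair in both, with r = -0.26 and r = -0.019. In single compartment cells at 5000 UMIs, 35 of the 36 pairs of genes were found together more often than independent detection would give (odds ratio above 1) in each KLF2 library, with median odds ratios of 1.56 and 1.61. Apcdd1 with Nkd1 had the highest odds ratio in replicate 1, 3.71, and Notum with Nkd1 in replicate 2, 2.88.

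**Figure D3:**
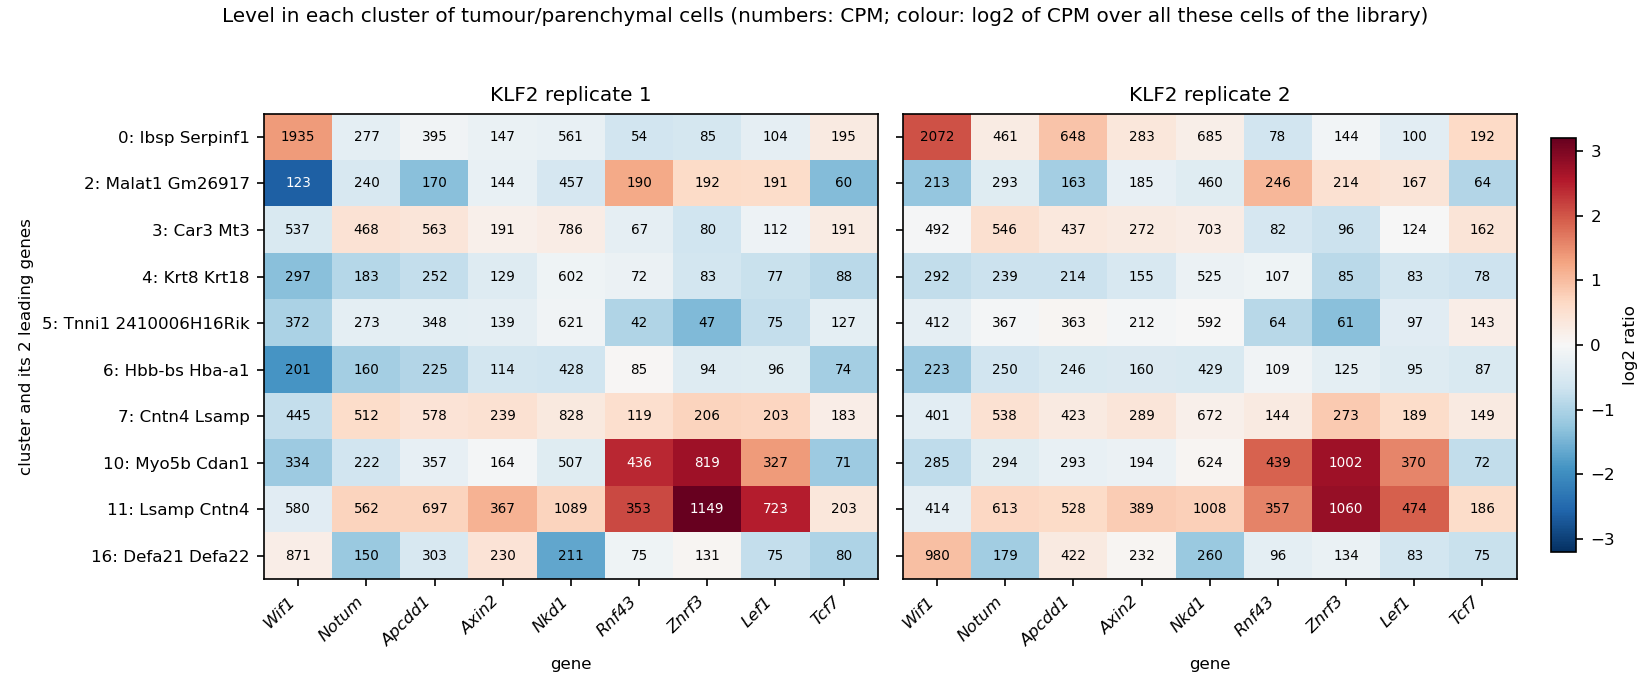
Level of each gene (printed number, CPM) in each compartment cluster with at least 50 cells in each KLF2 library, for KLF2 replicates 1 and 2, coloured by the log2 ratio to its level over the whole compartment of that library. Wif1 is strongest in the Ibsp and Serpinf1 row, and Znrf3, Lef1 and Rnf43 in the rows led by Lsamp and by Myo5b, and not in the row led by Cntn4.

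The genes whose levels most resembled each member were sought over 49 sums of a cluster in a library, among 8959 genes, by Pearson r of log2(CPM + 10). For Notum all 3 were other members, Nkd1 (r = 0.976), Apcdd1 (0.971) and Axin2 (0.96). Nkd1 had Notum, Apcdd1 and Fgfrl1 (0.965), and Apcdd1 had Notum, Ptn (0.97) and Nkd1. Wif1 was closest to Ptn (0.971), which encodes the secreted growth factor pleiotrophin, followed by Apcdd1 (0.964) and Stra6 (0.949), a retinol transporter. Axin2 was closest to Notum, Apcdd1 and Tbx3 (0.942). Znrf3 was closest to Mdga2 (0.976), Robo1 (0.971) and Cadps (0.969), and Rnf43 to Tenm4 (0.959), Mapk4 (0.956) and Cadps (0.955), a set without other members. Lef1 had Atp10a (0.942), Rnf43 (0.941) and Znrf3 (0.935). Tcf7 had no close match, with Axin2 (0.816), Nob1 (0.808) and Rpa1 (0.803). The sums share libraries and the contrast between compartment and other cells, so the r values are a description.

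Cholangiocyte-like cells, which carry the biliary keratins Krt19 and Krt7, made up 588 and 1373 cells in KLF2 and none of the 8403 vector cells, and had all 9 genes. Nkd1 had 602 and 525 CPM there and Axin2 129 and 155 CPM. Wif1 had 297 and 292 CPM and Notum 183 and 239 CPM. The hepatocyte-lineage-like cells of the KLF2 libraries, 20 and 57 cells, had less of most genes, with Wif1 at 80.9 and 42.8 CPM against 0 UMIs in the 665 vector cells. Nkd1 had 148 and 269 CPM in these KLF2 cells against 3.01 CPM in the vector cells, and Axin2 had 53.9 and 91.7 CPM against 6.62 CPM. After thinning to 1000 UMIs, 35.0% and 57.9% of them held a UMI of the 9 genes, against 4.84% of the vector hepatocyte-lineage-like cells and 76.5% and 77.0% of the cholangiocyte-like cells. How much of this is free RNA from neighbouring tumour cells cannot be read here, since the tumour genes used as a gauge spread widely there, up to 204% (upper quartile) of their compartment level in replicate 1 and 111% in replicate 2.

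Transcripts of the 9 genes were found in stromal and immune cells of the KLF2 tumours as well. In each of the 6 other classes, all 9 genes were higher in both KLF2 libraries than in vector. Wif1, of which no UMI was found in those classes of vector replicate 2, had 107 and 149 CPM in KLF2 myeloid-like cells, 113 and 101 CPM in T/NK-like cells and 71.0 and 85.4 CPM in endothelial-like cells. It had 95.8 and 163 CPM in mesenchymal-like, 119 and 161 CPM in B/plasma-like and 409 and 206 CPM in neutrophil-like cells. Nkd1 had 114 and 215 CPM in KLF2 myeloid-like cells against 1.68 CPM in vector, and 83.5 and 153 CPM in endothelial-like cells against 4.99 CPM. Neutrophil-like cells were few, 57 and 141 in KLF2 and 73 in vector. Different clusters made up a class in the groups. Most T/NK-like cells were in a cluster led by Gzma in KLF2 and in 2 others in vector, and the endothelial-like, myeloid-like and B/plasma-like classes were likewise held by different clusters.

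The edgeR quasi-likelihood fit over all genes, with Benjamini-Hochberg adjustment, called 9 of 9 members higher in KLF2 in the compartment, where 13.4% of 20454 genes were called higher. It called 9 in myeloid-like cells (14.3% of all genes higher), 9 in endothelial-like cells (14.4%), 9 in B/plasma-like cells (8.59%) and 8 in mesenchymal-like cells (11.1%). In T/NK-like cells it called 7 (11.8%) and in neutrophil-like cells 7 (6.12%). Since the genes were picked for being high in KLF2 libraries, and the compartment's RNA is found in every class, nothing is read from these counts. The members that missed the threshold were Tcf7 and Rnf43 in T/NK-like cells, Tcf7 in mesenchymal-like cells and Lef1 and Rnf43 in neutrophil-like cells. For Tcf7 the fitted difference was 0.02 on the log2 scale in T/NK-like cells (SE 0.29, adjusted p = 0.971) and 0.63 in mesenchymal-like cells (SE 0.49, adjusted p = 0.413). For Rnf43 in T/NK-like cells it was 0.65 (SE 0.37, adjusted p = 0.209). In the neutrophil-like cells Lef1 had a difference of 2.10 (SE 0.92, adjusted p = 0.133) and Rnf43 of 2.66 (SE 1.17, adjusted p = 0.131).

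The levels outside the compartment were set against those that the compartment's own RNA would leave, and their source was not tested. Tumour and epithelial genes that immune and stromal cells should lack, such as Krt8, Epcam, Il31ra and Car3, served as a gauge, as RNA from a single source keeps its genes in the same proportion in every class of a library. Over 19 such genes, the median level in another class was 11.6% to 24.5% of the compartment level in KLF2 replicate 1 and 20.5% to 72.4% in KLF2 replicate 2, the highest in both being in neutrophil-like cells. In vector replicate 2 it was 3.17% to 5.12%, over 10 genes that include Alb, Apoa1, Ttr and Fabp1 and leave out Il31ra. The KLF2 set lacks those plasma and liver genes, so the ranges of the groups rest on different genes. The median ratio times the compartment level of a member gives a level expected without any expression in the class. Over the 108 combinations of 9 genes, 6 classes and 2 KLF2 libraries, the expected level was a median of 85.2% of the observed one. In 78 of them the observed level was above the expected level. In 20 the counting interval of the observed level lay wholly above the expectation from the upper quartile of the gauge genes. Stray tumour cells and doublets within a class count the same way as free RNA. The class medians of this share were 38.4% to 49.7% in T/NK-like, B/plasma-like and neutrophil-like cells of KLF2 replicate 1, 88.3% to 98.8% in its other 3 classes, and 80.1% to 109% in all 6 classes of replicate 2. The low values in replicate 1 depend on the setting. With the gauge genes summed in place of their median they were 91.4% in T/NK-like, 86.2% in B/plasma-like and 78.9% in neutrophil-like cells. Without the top 5% of doublet scores they were 42.2%, 62.0% and 96.3% in the same classes. Nkd1 in T/NK-like cells of replicate 1 had 202 CPM, where 77.5 CPM was expected, and 78.1 CPM without those doublet scores, where 59.1 CPM was expected. The scores came from Scrublet, which called 0 doublets in these libraries and so has not worked on them. What doublets contributed therefore cannot be read from this filter.

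The secreted inhibitors stood at about the level that the gauge gives. For Wif1 the expected level was a median of 108% of the observed level over 12 combinations, and in 0 of 12 did the interval clear the upper quartile. For Notum the median was 102% with 1 of 12 clear, and for Apcdd1 91.2% with 0 of 12. Axin2 (82.0%, 1 of 12), Rnf43 (80.6%, 0 of 12) and Nkd1 (88.4%, 3 of 12) were close to these. Znrf3 had a lower median, 57.0%, and was observed above expected in 12 of 12 and clear of the upper quartile in 8 of 12. In KLF2 myeloid-like cells Znrf3 had 33.4 and 59.7 CPM against expected levels of 19.6 and 42.3 CPM, and in endothelial-like cells 33.4 and 47.9 CPM against 16.5 and 31.5 CPM. Its vector levels in those classes were 1.16 and 0.399 CPM. With the gauge genes summed in place of their median, the Znrf3 median was 85.1%, and the counting interval lay above the expected level in 4 of 12 combinations, against 12 of 12 with the median. The expected Znrf3 levels were then 31.4 and 54.2 CPM in KLF2 myeloid-like cells and 28.9 and 46.5 CPM in endothelial-like cells, close to those observed. The summed gauge gave medians of 109% to 173% for the other inhibitors.

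**Figure D4:**
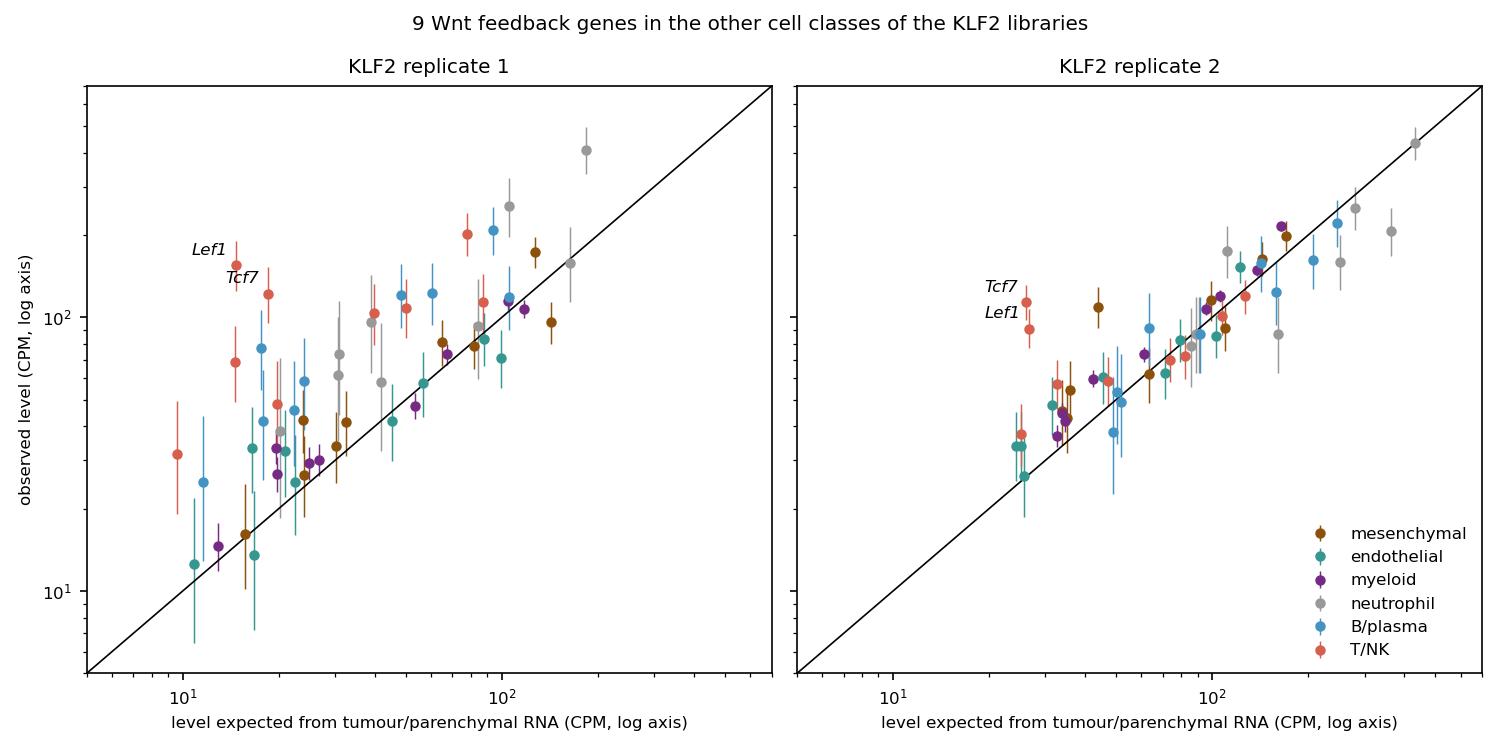
Observed level of each gene in 6 other cell classes (vertical axis, CPM, log axis, 95% counting intervals) against the level expected from compartment RNA (horizontal axis, CPM, log axis), for KLF2 replicates 1 and 2. In replicate 2 most points lie near the line of equality, in replicate 1 many T/NK-like, B/plasma-like and neutrophil-like points lie above it, and Lef1 and Tcf7 in T/NK-like cells lie far above it in both.

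The LEF/TCF factors in T/NK-like cells stood farthest above the gauge. In them Lef1 had 155 and 91.0 CPM in KLF2, where compartment RNA would give 14.7 and 26.7 CPM. Tcf7 had 122 and 114 CPM, where it would give 18.5 and 26.1 CPM. Compartment RNA thus matched 9.48% and 29.4% of the Lef1 level and 15.2% and 22.9% of the Tcf7 level. In vector T/NK-like cells Lef1 had 30.1 CPM and Tcf7 95.6 CPM, so the Tcf7 levels of KLF2 and vector cells were close and Lef1 was higher in both KLF2 libraries. Taking off the expected compartment RNA leaves 140.4 and 64.3 CPM of Lef1 in KLF2 T/NK-like cells, both still above the vector value. It leaves 103.3 and 87.6 CPM of Tcf7, on either side of the vector CPM. These CPM are without further scaling, and mitochondrial genes took a larger part of the vector UMIs. The scaled fit above put Tcf7 nearly level in the groups before this subtraction. On which side of vector the Tcf7 remainder falls therefore cannot be read. With the gauge genes summed in place of their median, compartment RNA would match 22.6% and 44.4% of the Lef1 level and 36.1% and 34.7% of the Tcf7 level. The expected Tcf7 levels are then 44.0 and 39.4 CPM, which leaves less Tcf7 in both KLF2 libraries than in vector, while Lef1 stays above it. Without the top 5% of doublet scores Lef1 had 171 and 92.3 CPM in KLF2 T/NK-like cells and 30.2 CPM in vector ones. The limit stated above for these scores holds here too. Thinned to 1000 UMIs, a Tcf7 UMI was found in 13.8% and 12.8% of KLF2 T/NK-like cells and 8.31% of vector ones. For Lef1 the shares were 10.6% and 8.54% in KLF2 and 2.90% in vector. The limit stated above for thinned shares holds for both genes. The KLF2 T/NK-like class is small, 94 and 398 cells against 3443, and its make-up by cluster differs from vector.

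In the vector tumour several of the genes were highest outside the compartment. For Tcf7 and Lef1 this was the T/NK-like class, which stood above the gauge in the KLF2 libraries too. Tcf7 and Lef1 were highest in T/NK-like cells, which held 1266 of the library's 1599 Tcf7 UMIs and 399 of its 490 Lef1 UMIs. Axin2, at 13.4 CPM, and Rnf43, at 18.8 CPM, were highest in the same class. Of the 2 vector T/NK-like clusters, the one led by Icos and Arhgap45 had 114 CPM of Tcf7 and 24.4 CPM of Axin2. The other, led by Ccl5 and Nkg7, had 86.1 and 7.79 CPM. Judged by T-cell marker genes in the same way as above, T/NK RNA would give 86.3% of the Tcf7 level of vector myeloid-like cells and 92.1% of that of endothelial-like cells. In the vector compartment it would give 55.6% of the Tcf7 level, 70.1% of Lef1 and 33.3% of Rnf43. Nkd1 in vector was highest in mesenchymal-like cells, at 25.2 CPM, of which T/NK RNA would give 0.245% and compartment RNA 1.29%. It was also raised in an endothelial-like cluster led by Nts and Rspo3, at 21.3 CPM, against 1.90 CPM in the other endothelial-like cluster. The counts behind these vector levels are small, 72 Nkd1 UMIs in the mesenchymal-like cells.

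The rest of the pathway was examined through a list of 108 other Wnt genes, of which 102 were tested in the compartment. In KLF2 48 of them (47.1%) were called higher and 6 (5.88%) lower, against 13.4% and 10.7% of all 20454 genes. The median fitted difference of the list was 1.98 on the log2 scale, against 0.65 for all genes. With the genes that had no vector UMI set at the limit of 3 counts, 19 on the list and 5118 of all genes, the medians were 1.59 and -0.082. DESeq2 size factors in place of TMM moved the median of all genes to 0.54. The list was chosen with results of these data known, so the counts are no independent evidence.

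Ligands and their secretion factors had 7 of 21 tested genes higher and 0 lower. Wnt5a, a ligand mostly of the β-catenin-independent branch, had 71.0 and 64.5 CPM in KLF2 and 1.20 CPM in vector, a fitted log2 difference of 5.13 (SE 0.39, edgeR adjusted p = 0.004). Wnt6 had 138 and 83.9 CPM in KLF2 and 2.09 CPM in vector (log2 difference 5.04, SE 0.58, edgeR adjusted p = 0.0083). All 7 vector UMIs of Wnt6 came from the 3 cells described above. Porcn and Wls, which load Wnt proteins with lipid and carry them to the surface, were among the 7, along with Wnt5b, Wnt7a and Wnt10a.

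Receptors and co-receptors had 10 of 18 higher and 0 lower. Lgr5, an R-spondin receptor and stem cell marker, had 56.1 and 49.1 CPM in KLF2 and 0.299 CPM, a single UMI, in vector (log2 difference 6.76, SE 0.51, edgeR adjusted p = 0.004). Fzd10 had 61.2 and 40.4 CPM in KLF2 and 0.898 CPM in vector (log2 difference 5.13, SE 0.60, edgeR adjusted p = 0.0084), and its 3 vector UMIs also came from the 3 cells. The other inhibitors had 10 of 19 higher, including Dkk1, Dkk2 and Dkk3, secreted proteins of the Dickkopf family, and Nkd2, the paralogue of Nkd1. Kremen2 was called lower, on 4 and 6 UMIs in KLF2 and 5 in the far smaller vector sum.

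Inside the cell, the cytoplasmic machinery had 9 of 16 higher and 0 lower, with a median log2 difference of 1.59, and the nuclear partners of β-catenin 4 of 10 higher and 0 lower, with 0.96. Target genes split. Of 20, 10 were higher, among them Sp5, Ccnd1, Tbx3 and Prox1, and 5 were lower. Lgr5 and Dkk1 are also counted here, and without them 8 of 18 were higher. The 5 were Cyp2e1, Cyp1a2, Oat, Rhbg and Lect2, genes of hepatocytes. Cyp2e1, a drug-metabolising enzyme of hepatocytes around the central vein, fell to 0.697 and 0.803 CPM in KLF2, against 153 CPM in vector (log2 difference -8.35, SE 0.27, edgeR adjusted p = 0.0021). Oat, an ornithine enzyme of the same zone, had 36.5 and 31.3 CPM in KLF2 and 102 CPM in vector (log2 difference -2.28, SE 0.23, edgeR adjusted p = 0.0064). Not all such targets fell. Glul, on the same list, had 604 and 550 CPM in KLF2 and 259 CPM in vector (log2 difference 0.47). Slc1a2 had 3.19 and 3.38 CPM in KLF2 and 2.99 CPM in vector (log2 difference -0.55). The hepatocyte marker sum given above fell beside the lower genes, and its part in these changes was not tested.

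**Figure D5:**
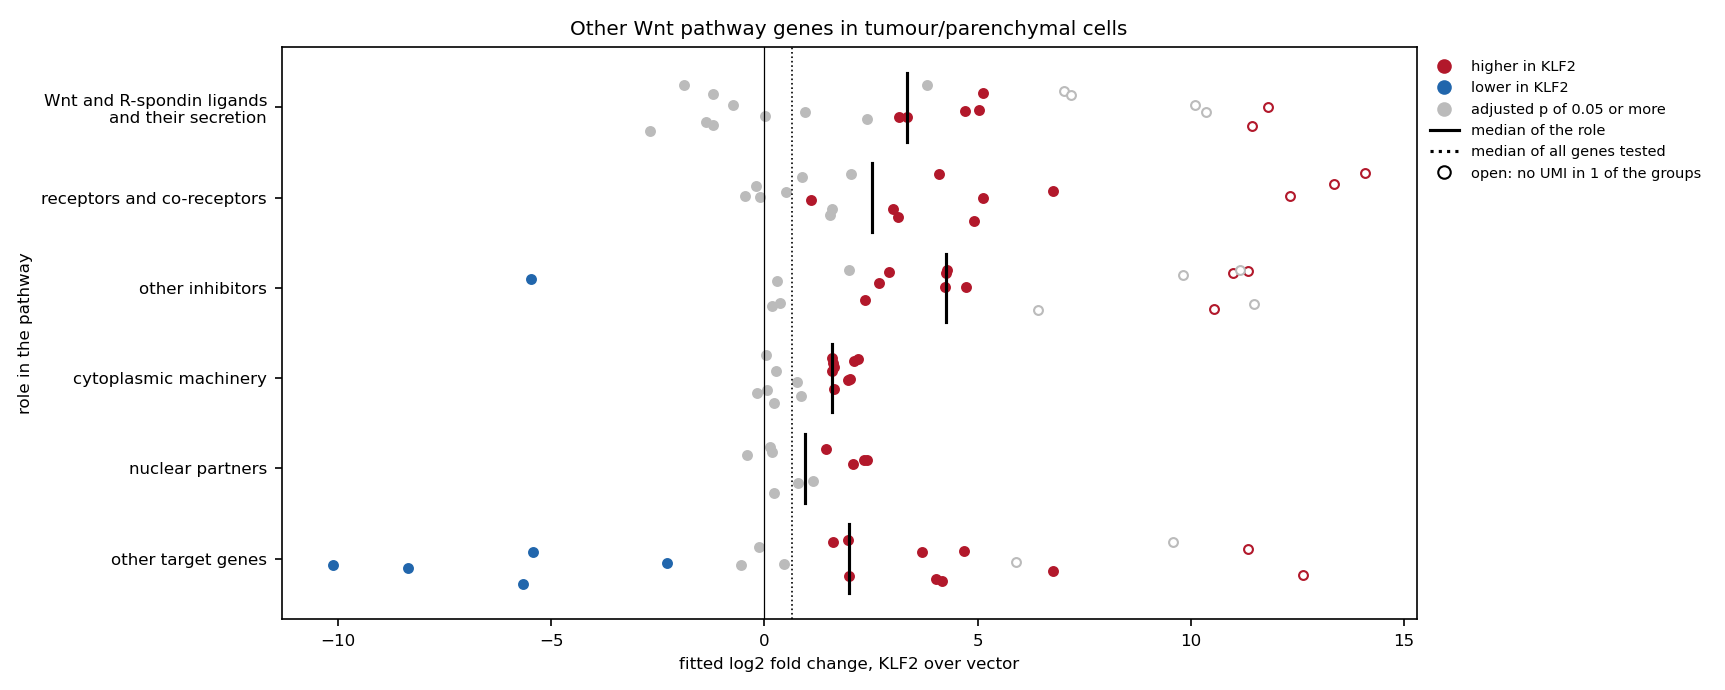
Fitted log2 difference, KLF2 over vector, of the other Wnt pathway genes tested in the compartment, by role (1 point per gene, black bars for role medians, dotted line for the median of all genes). Open points are genes without a UMI in 1 group, whose fitted value is not a fold. Lower calls (blue) are Kremen2 and the 5 hepatocyte genes.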

How the data were processed

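Each deposited matrix gives whole-number UMI counts for a gene in a barcode, without normalisation, as written by PISA v1.0 per the file headers. The genome build was GRCm38 per the submitters' processing notes, while for the aligner, annotation, strand setting and cell-calling rule the sources used here give nothing. Per the labels, tumours were minced, digested and run on a DNBelab C Series droplet kit. Matrices of 3 of the 4 libraries were analysed. Total counts were 95374838 and 125458473 UMIs in KLF2 replicates 1 and 2 and 45594544 in vector replicate 2, in 6282, 11240 and 12852 barcodes.

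Barcodes under 300 genes or over 25% mitochondrial UMIs were dropped, which removed 1.16% and 1.22% of KLF2 barcodes and 34.6% of vector barcodes. Scrublet called 0 doublets, so the method has not worked on these libraries. Clusters were made with scanpy 1.11.5 and leidenalg 0.10.2 (counts scaled to 10000 per cell, 2000 variable genes without the 9 genes and the Wnt list, 30 components, 15 neighbours, resolution 1.0), giving 27 clusters. They were named from marker lists where the mean log2 score, with 20 CPM added, reached 1.0 and led by 0.5, with at least 3 markers each found in at least 25% of cells. Unnamed clusters with under 100 CPM of Ptprc, together with those named hepatocyte-lineage-like or cholangiocyte-like, make up the compartment.

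UMI counts were summed per library and class (at least 50 cells in each library) and tested by the quasi-likelihood method of edgeR 4.0.16 (TMM, filterByExpr, Benjamini-Hochberg adjusted p at 0.05). There was 1 residual degree of freedom, and the single vector library was assumed to vary like the KLF2 libraries. On simulated data the fit recovered 23% of 2-fold and 95% of 8-fold changes in the compartment. All simulated libraries shared a mean profile and a fixed dispersion, and genes with low counts were left out. The real groups differ in cell type, so these rates are not the power of the real comparison. Gauge genes for free RNA needed 20 CPM in the source class. Counting intervals are exact Poisson and shares of cells Wilson intervals, both at 95%, and cover counting error only. A fold against a count of 0 uses a floor of 3 counts over that group.

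Named genes are the 9 members, the 3 genes most like each (mean of at least 10 CPM, predicted genes left out), and of the Wnt list up to 4 called genes in each direction with a mean of at least 30 CPM, ranked by log2 difference. Other Wnt genes are named only as part of the count for their role, apart from Glul and Slc1a2, which are set beside the lower target genes. The members, lists and tests were chosen with earlier results of these data known. Sequences are from RefSeq (GRCm38.p6).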

Additional observations from a re-analysis of the deposited data

How the results depend on the processing

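No paired analysis was possible because the groups share only replicate number 2 among the libraries with a matrix. In the compartment the median log2 difference of the Wnt list ran from 1.54 (DESeq2 Wald test) to 2.21 (at most 10% mitochondrial UMIs) over the settings fitted. That of all genes ran from 0.41 (DESeq2 Wald test) to 1.69 (no low count filter). The number of genes called moved with the setting, for the list and for all genes. In neutrophil-like cells fewer members were called with DESeq2 size factors and fewest with the DESeq2 Wald test, and calls over all genes fell likewise. The median log2 difference of the members there was 4.88 and 4.93 at these settings, against 4.97. DESeq2 1.42.0 gave no adjusted p for 4 members there. The neutrophil fits with 500 genes or 10% mitochondrial UMIs were not run, with 34 and 12 vector cells. The summed level of the 9 genes in the vector compartment was 55.0 CPM at most 10% mitochondrial UMIs, 125 CPM without mitochondrial genes and Gm42418, and 43.3 CPM without the 3 cells (a setting chosen after seeing the data), against 69.7 CPM. In KLF2 it was 3152 CPM without mitochondrial genes and Gm42418, and 2573 to 2849 CPM when either KLF2 library was left out. The median ratio of expected to observed member level outside the compartment was 115% with summed gauge genes in place of their median. It was 72.7% without KLF2 replicate 2 and 89.7% without KLF2 replicate 1, against 85.2%. Each combination of gene, class and library weighs alike in this median, so it is not a share of UMIs. Whether compartment RNA covers all of the level depends on how the gauge is summarised. With either KLF2 library left out, the median log2 ratio of the Wnt list was 1.61 to 1.90 and no test is possible. Without a low count filter the difference of Tcf7 in T/NK-like cells was -0.13 (adjusted p = 0.834). Single-member calls were lost in 19 cases, 13 of them with the DESeq2 Wald test, mostly of Tcf7, Lef1 and Rnf43. The cause was not tested. Depth limits the vector levels, which rest on 1 to 64 UMIs a gene in the compartment.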
